A study of Drosophila melanogaster with 9 samples.

Results

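The libraries described here are 2 of the 9 of a study of small RNAs in Drosophila melanogaster testes. They are the heterozygotes that stand as controls beside the aub and ago3 mutants: 1 library from aub/CyO males and 1 from ago3/TM6 males. They were chosen by genotype, with the 86 transposable elements of the deposited table that covers the aub and ago3 genotypes together and with the length tables of the same libraries. Each was made from whole, hand-dissected testes with germ cells from gonioblasts to mature sperm, per the labels. CyO and TM6 are balancer chromosomes, which suppress recombination and keep a mutation over a functional copy of the gene. The labels give neither the aub or ago3 allele carried nor the rest of the genetic background. Set beside them are 1 library each from y w testes, from aub (N11/HN2) and ago3 (t2/t3) mutant testes, from bam and bgcn mutant testes and from can and sa mutant testes, the last pair without their apical tips. The comparison asks how far 2 testes that each keep a functional copy of aub and of ago3 differ in their transposon small RNAs.

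PIWI-interacting RNAs (piRNAs) guide Piwi-family proteins to transposon transcripts in germ cells. Aub and Ago3 are cytoplasmic members of that family and take part in the ping-pong cycle, in which antisense piRNAs cut transposon transcripts and the fragments become sense piRNAs that cut antisense precursors. Small interfering RNAs are shorter and are made by Dicer-2 for the protein Ago2. In fly testes Aub-bound piRNAs are best known for silencing the Stellate repeats, through the Suppressor of Stellate repeats of the Y chromosome, which contain 1360 sequence.

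Each genotype has 1 library, and without replicates no difference below was tested. The intervals are 95% exact intervals for counting error only. With 1 library per genotype, genotype, balancer and stock cannot be told apart. The read files named in the headers of the length tables carry different prefixes for the aub and the ago3 libraries, whose meaning is not stated. Small RNA tables hold no messenger RNA of testis marker genes, so tissue and genotype rest on the labels. In testis RNA, fewer cells of a type and fewer small RNAs per cell cannot be told apart. In the piRNA length range, 23 to 29 nt, the aub heterozygote had 97747 reads and the ago3 heterozygote 115785. Reads worked back from the 86-element table numbered 83953 in the aub heterozygote and 102700 in the ago3 heterozygote. These are 85.9% and 88.7% of the 23 to 29 nt totals, in the same order, but no source used here states which lengths that table counts. How reads that map to several elements were handled is not stated either, and single values of related elements, such as the TART group or Dsim-ninja and aurora-element, may share reads.

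The elements that took most of the small RNAs were nearly the same in the 2 testes. The 10 most abundant elements held 59.7% of element-mapping reads in the aub heterozygote and 57.0% in the ago3 heterozygote, and 8 elements were among the 10 in both. First in both was 1360 (also called hoppel), a P-type DNA transposon, with 13886 reads or 16.5% (16.3 to 16.8) in the aub heterozygote and 19698 reads or 19.2% (18.9 to 19.4) in the ago3 heterozygote. The share ratio, which throughout is the share in the aub heterozygote over that in the ago3 heterozygote, was 0.862 (0.844 to 0.881) for 1360. Second in the aub heterozygote was opus, a gypsy-type retrotransposon with long terminal repeats (LTRs), at 10.7% (10.5 to 10.9), against 5.93% (5.78 to 6.07) in the ago3 heterozygote. The non-LTR element baggins, a LINE-like retrotransposon, stood in second place in the ago3 heterozygote, at 5.63% (5.47 to 5.79) in the aub heterozygote, against 7.45% (7.29 to 7.61) in the ago3 heterozygote. Hence opus and baggins changed places below 1360.

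Of the other abundant elements, several lay closer to 1 and others farther off. The LTR element copia held 4.99% in the aub heterozygote and 4.95% in the ago3 heterozygote, a ratio of 1.01 (0.967 to 1.05). For roo, a BEL/Pao-type LTR element, the shares were 4.77% in the aub heterozygote and 4.47% in the ago3 heterozygote, a ratio of 1.07 (1.02 to 1.11). The copia-type element Dm88 had 1.05% and 0.984% in the same order, a ratio of 1.07 (0.975 to 1.17). These 3 were the elements with a mean share of at least 1% whose ratios lay nearest to 1. R1A1-element, which inserts into ribosomal DNA, had a ratio of 1.11 (1.06 to 1.17), the LINE-like G2 one of 1.10 (1.03 to 1.17) and the LINE-like Doc one of 0.862 (0.814 to 0.912). Farther off, besides mdg3, aurora-element and F-element described below, was Dsim-ninja, a BEL/Pao-type element, with 4509 reads (5.37%) in the aub heterozygote and 3685 reads (3.59%) in the ago3 heterozygote, a ratio of 1.497 (1.43 to 1.56). In the tables over all read lengths the share ratios of copia, roo, Dm88, R1A1-element, G2 and Dsim-ninja were all below 1, between 0.208 for G2 and 0.631 for R1A1-element. Shares over all read lengths, here and below, are of the reads of all 179 entries of those tables, not of the 86 elements. The other entries took 37.9% of those reads in the aub heterozygote and 19.4% in the ago3 heterozygote, which lowers the ratios of the 86. All-length ratios on the total of the 86 elements were not computed.

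**Figure D1:**
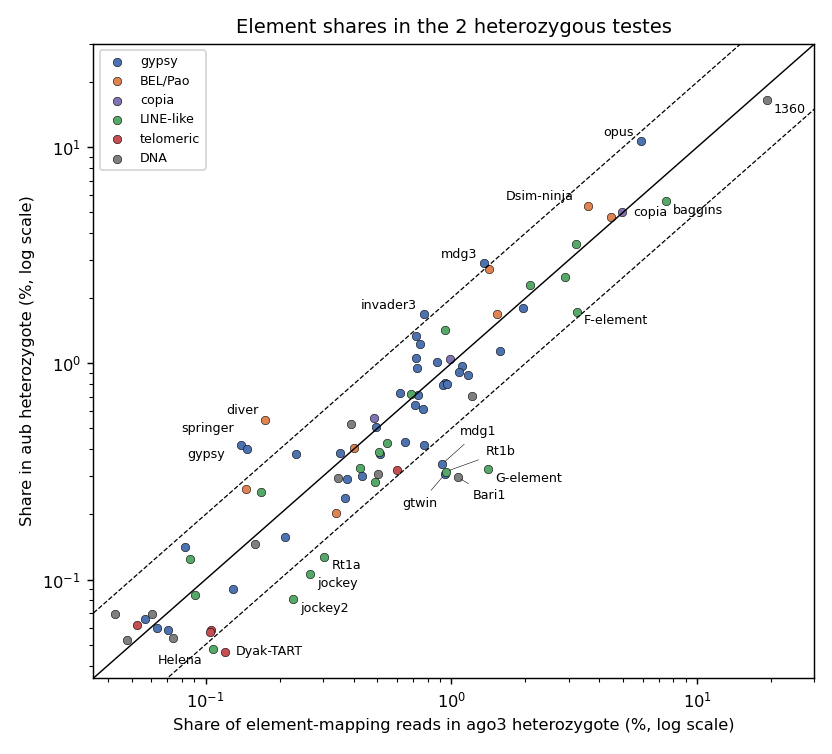
Share of element-mapping reads of each of the 86 elements in the ago3 heterozygote (x axis, percent, log scale) and in the aub heterozygote (y axis, percent, log scale), coloured by family, 1 library each. The solid line marks equal shares and the dashed lines 2-fold differences; 70 of the 85 elements with at least 100 reads lie between the dashed lines, with 5 above and 10 below.

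Over all elements, 85 of the 86 reached 100 reads summed over both libraries, the minimum for counting. The exception was Q-element, grouped here with the DNA transposons, with 44 reads in the aub heterozygote and 49 in the ago3 heterozygote. Of the 85, 15 (17.6%) differed at least 2-fold in share, 5 (5.88%) with a ratio of at least 2 and 10 (11.8%) with a ratio of at most 0.5. The whole interval lay past 2-fold for all 5 of the first and for 6 of the 10 of the second. The typical difference was smaller than 2-fold, with a median absolute log2 ratio of 0.47, equal to a 1.38-fold difference, and a median ratio of 0.879. The ratio was above 1 for 36 of the 85 elements (42.4%) and below 1 for 49 (57.6%). Its counting interval lay wholly above 1 for 27 elements, wholly below 1 for 41 and included 1 for 17. The share of reads that would have to move between elements to make the libraries alike was 15.5%.

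The 5 elements with a ratio of at least 2 were LTR retrotransposons, 4 of them of the gypsy type, where LTR elements made up 50 of the 85 counted (58.8%). The BEL/Pao-type element diver had 460 reads (0.548%) in the aub heterozygote and 180 reads (0.175%) in the ago3 heterozygote, a ratio of 3.13 (2.63 to 3.74). The gypsy-type element springer had 352 reads in the aub heterozygote and 143 in the ago3 heterozygote, a ratio of 3.01 (2.47 to 3.68). The element gypsy itself, an errantivirus active in the somatic cells of the ovary, had 336 reads in the aub heterozygote and 151 in the ago3 heterozygote, a ratio of 2.72 (2.24 to 3.32). These 3 were minor targets, each at 0.548% of reads or less in both libraries. The other pair were larger targets. The element invader3 held 1.69% (1417 reads) in the aub heterozygote and 0.773% (794 reads) in the ago3 heterozygote, a ratio of 2.18 (2.00 to 2.38). The share of mdg3 was 2.91% (2445 reads) in the aub heterozygote and 1.36% (1396 reads) in the ago3 heterozygote, a ratio of 2.14 (2.01 to 2.29), just inside the 2-fold limit. In the tables over all read lengths the share ratios of invader3 (0.768) and mdg3 (0.434) were below 1. That is on the total of 179 entries, which lowers such ratios. There diver (1.40) and gypsy (1.04) were no longer past 2-fold, and springer (2.05) was. On the authors' normalised values none of the 5 was past 2-fold, with ratios between 1.29 for mdg3 and 1.88 for diver. Those are ratios of levels, not of shares. Each is the share ratio times the same constant, the 0.602 of the library totals on that scale.

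Below the limit on the same side stood more LTR elements. Just outside it was aurora-element, a BEL/Pao-type element, with 2302 reads in the aub heterozygote and 1464 in the ago3 heterozygote, a ratio of 1.92 (1.80 to 2.06). The gypsy-type element named 297 had a ratio of 1.86 (1.69 to 2.04), the BEL/Pao-type element 3S18 one of 1.80 (1.46 to 2.23), opus one of 1.80 (1.74 to 1.86) and the gypsy-type element rover one of 1.71 (1.29 to 2.29). The 10 largest ratios thus all belonged to elements with LTRs, which were 50 of the 85 counted. Over all read lengths, on the total of 179 entries, 297 (0.833), 3S18 (0.610) and opus (0.398) were below 1. The ratios of aurora-element (1.55) and rover (2.01) stayed above 1. Since opus is 1 of the most abundant targets, its ratio rests on 8952 reads in the aub heterozygote and 6087 in the ago3 heterozygote and has the narrowest interval of the 10.

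Of the 10 elements with a ratio of at most 0.5, 6 were LINE-like, where LINE-like elements made up 20 of the 85 counted. G-element, a LINE-like element without LTRs, stood lowest, with 272 reads (0.324%) in the aub heterozygote and 1447 reads (1.41%) in the ago3 heterozygote, a ratio of 0.230 (0.201 to 0.262). Of the R1 group of LINEs, Rt1b had 265 reads in the aub heterozygote and 976 in the ago3 heterozygote, a ratio of 0.332 (0.289 to 0.381), and Rt1a 107 reads in the aub heterozygote and 312 in the ago3 heterozygote, a ratio of 0.420 (0.334 to 0.524). The LINE jockey2 had 68 reads in the aub heterozygote and 233 in the ago3 heterozygote, a ratio of 0.357 (0.268 to 0.470). For the related LINE jockey the counts were 89 in the aub heterozygote and 274 in the ago3 heterozygote, a ratio of 0.397 (0.309 to 0.506). Helena, another LINE of that group, lay just inside the limit with 40 reads in the aub heterozygote and 110 in the ago3 heterozygote, a ratio of 0.445 (0.302 to 0.644). In all, 6 LINE-like elements took a share in the aub heterozygote of at most 0.5 of that in the ago3 heterozygote, although the intervals of Rt1a, jockey and Helena reached past 0.5.

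The other low ratios came from separate groups. Bari1, a Tc1-type DNA transposon, had 249 reads (0.297%) in the aub heterozygote and 1092 reads (1.06%) in the ago3 heterozygote, a ratio of 0.279 (0.242 to 0.320). The gypsy-type element gtwin had 258 reads (0.307%) in the aub heterozygote and 967 reads (0.942%) in the ago3 heterozygote, a ratio of 0.326 (0.283 to 0.375). The gypsy-type element mdg1 had 287 reads in the aub heterozygote and 941 in the ago3 heterozygote, a ratio of 0.373 (0.326 to 0.426). Thus 2 LTR elements were among the 10, where LTR elements made up 50 of the 85 counted. Reads matching Dyak-TART, the table's entry for the telomeric TART of Drosophila yakuba, numbered 39 in the aub heterozygote and 123 in the ago3 heterozygote, a ratio of 0.388 (0.263 to 0.560). In the tables over all read lengths, Dyak-TART and Helena took the opposite direction, with share ratios of 1.93 and 1.77. There G-element (0.216), Bari1 (0.109) and Rt1b (0.494) remained at 0.5 or less, and the other 5 lay between 0.518 for jockey and 0.701 for gtwin.

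**Figure D2:**
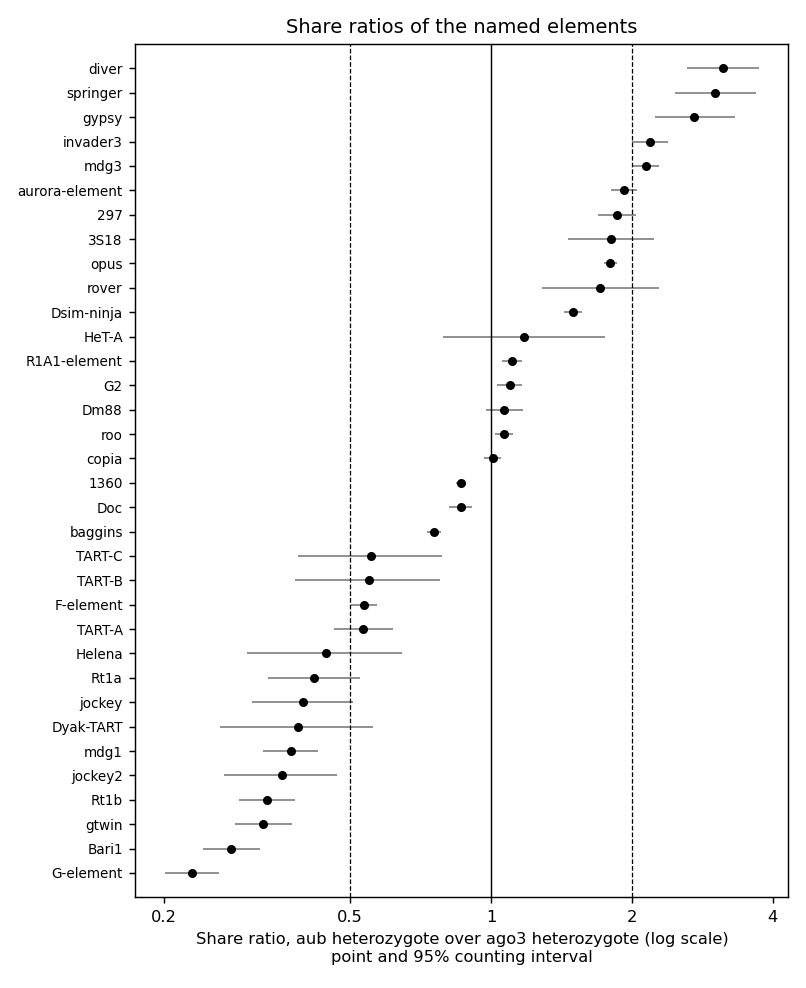
Share ratio, aub heterozygote over ago3 heterozygote, of the 34 named elements (x axis, log scale), 1 library each, with points for the ratio and bars for its 95% counting interval. The solid line marks a ratio of 1 and the dashed lines 0.5 and 2; diver is highest at 3.13 and G-element lowest at 0.230.

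By family, LTR retrotransposons took a larger share in the aub heterozygote and the other families a smaller one. The authors' normalised values compare levels and lower every ratio by the same constant. On them all 6 families were lower in the aub heterozygote. Gypsy-type elements held 37.0% (36.7 to 37.4) of reads in the aub heterozygote, against 31.3% (31.0 to 31.6) in the ago3 heterozygote, a ratio of 1.18 that became 0.711 on the authors' normalised values. Of their 39 members, all counted, 4 passed 2-fold upward and 2 downward, beside 5.88% upward and 11.8% downward of all 85 elements, and the median member had a ratio of 0.898, near the 0.879 of all elements. The family's larger share therefore went with abundant members such as opus and mdg3, not with the typical one. BEL/Pao-type elements held 15.99% (15.7 to 16.2) in the aub heterozygote, against 12.1% (11.9 to 12.3) in the ago3 heterozygote, a ratio of 1.32 that became 0.796 on the authors' normalised values and 0.706 over all read lengths. Here 7 of the 8 members had a ratio above 1, beside 36 of all 85 elements, the median was 1.30 and the exception was rooA, with 170 reads in the aub heterozygote and 348 in the ago3 heterozygote. The 3 copia-type elements held 6.60% in the aub heterozygote and 6.42% in the ago3 heterozygote, and the interval of their ratio, 0.992 to 1.07, included 1.

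Elements without LTRs lay on the other side. LINE-like elements held 20.8% (20.5 to 21.05) in the aub heterozygote, against 26.1% (25.8 to 26.4) in the ago3 heterozygote, a ratio of 0.796, with a median member at 0.768. Of their 20 members, 14 had a ratio below 1, beside 49 of all 85 elements. At most 0.5 was the ratio of 6 members, beside 10 of all 85, and none passed 2-fold upward. F-element, the largest LINE-like target of the ago3 heterozygote after baggins, held 1.73% (1454 reads) in the aub heterozygote and 3.23% (3320 reads) in the ago3 heterozygote, a ratio of 0.536 (0.503 to 0.570). The upper end of the family was formed by Ivk, a LINE of the I-element group, with 214 reads in the aub heterozygote and 172 in the ago3 heterozygote, and X-element, a LINE, with 1199 reads in the aub heterozygote and 966 in the ago3 heterozygote, both at 1.52.

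DNA transposons held 19.1% in the aub heterozygote and 23.1% in the ago3 heterozygote, a ratio of 0.826 (0.809 to 0.843). Most of this was 1360, and without it the family held 2.52% in the aub heterozygote and 3.89% in the ago3 heterozygote, a ratio of 0.647. Apart from Bari1, the share differences included transib2, with 591 reads in the aub heterozygote and 1241 in the ago3 heterozygote, and hobo, with 259 reads in the aub heterozygote and 517 in the ago3 heterozygote. The DNA transposons pogo and Tc1-2 went the other way, at ratios of 1.34 and 1.61. Over all read lengths the LINE-like family had a ratio of 0.529 and the DNA family one of 0.386. Both are on the total of 179 entries, which lowers such ratios. The normalised values and the centring multiply every ratio by constants that could not bring either family above 1. They carry no information on direction, nor does the total without 1360 for the LINE-like family. With 1360 left out of the total and of the family, the DNA ratio was 0.626.

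The telomeric retrotransposons, which maintain fly chromosome ends, were minor targets that differed among themselves. The 5 entries among the 86 elements together held 0.546% (0.497 to 0.598) in the aub heterozygote, against 0.984% (0.925 to 1.05) in the ago3 heterozygote. Their ratio of 0.554 became 1.44 over all read lengths. The telomeric element TAHRE is not among the 86 and is in neither ratio. Over all read lengths it had 12973 reads in the aub heterozygote and 1106 in the ago3 heterozygote. HeT-A had 52 reads in the aub heterozygote and 54 in the ago3 heterozygote, a ratio of 1.18 (0.789 to 1.76). TART-A had 270 reads in the aub heterozygote and 619 in the ago3 heterozygote, a ratio of 0.534 (0.461 to 0.617), just outside the limit. TART-B, at 0.549, and TART-C, at 0.555, lay beside it, though over all read lengths the 3 had ratios of 1.10 (TART-A), 2.62 (TART-B) and 1.29 (TART-C). In the 86-element table the smaller telomeric share was carried by TART entries, which are related in sequence, and a difference in HeT-A was not detectable at this depth.

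A list of 8 gypsy-type elements known for activity in somatic gonadal cells, mainly from ovaries, was taken as the nearest to markers of other cells. Whether they report somatic cells in testes was not tested. These elements together held 3.41% (3.28 to 3.53) in the aub heterozygote, against 3.92% (3.81 to 4.04) in the ago3 heterozygote, a ratio of 0.868 that became 1.28 over all read lengths. The members split evenly, with 4 ratios above 1 and 4 below, and ranged from 0.326 for gtwin to 2.72 for gypsy. ZAM, with 55 reads in the aub heterozygote and 58 in the ago3 heterozygote, and Idefix, with 849 reads in the aub heterozygote and 897 in the ago3 heterozygote, both had ratios of 1.16. No member was at 0 in either library.

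**Figure D3:**
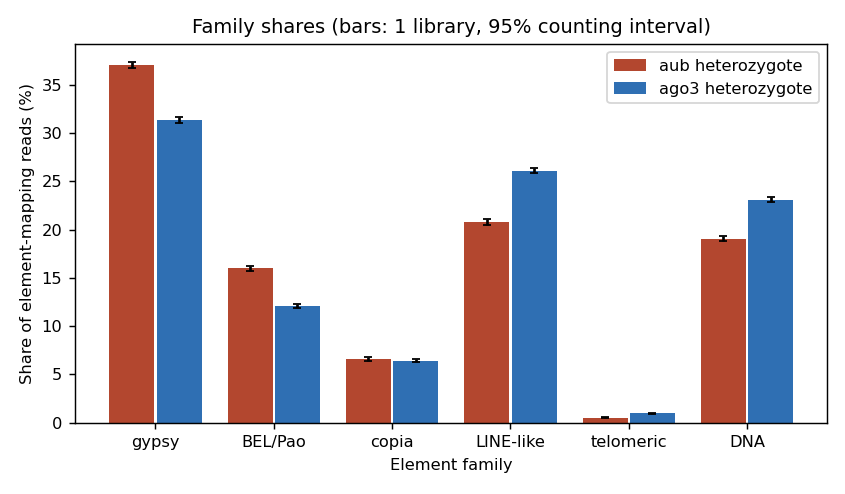
Share of element-mapping reads (y axis, percent) held by each of 6 element families (x axis) in the aub heterozygote and the ago3 heterozygote, 1 library per bar with its 95% counting interval. Gypsy-type and BEL/Pao-type elements are higher in the aub heterozygote (37.0% against 31.3%, and 15.99% against 12.1%), and LINE-like elements and DNA transposons are lower (20.8% against 26.1%, and 19.1% against 23.1%). The authors' normalised values compare levels and lower every ratio by the same constant, to 0.711 for gypsy-type and 0.796 for BEL/Pao-type elements.

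Shares leave out the amount of small RNA, for which the files give several scales. On the scale of the authors' length tables, whose headers mention rfam, the 23 to 29 nt total of the aub heterozygote was 0.885 (0.877 to 0.892) of that of the ago3 heterozygote. On the normalised values of the 86-element table the total in the aub heterozygote was at 0.602 of that in the ago3 heterozygote. The first value rests on a factor of 1.048 for the aub heterozygote, whose transposon lines carry a factor of 1.005, the one the length table gives to the ago3 mutant. With that factor the ratio is 0.848, so the ratio of levels depends on which of the authors' factors is used. On the scale of the 86-element table, 10 of the 85 elements were higher in the aub heterozygote, none of them 2-fold, and 34 were at a level of at most 0.5 of that in the ago3 heterozygote. For diver the normalised values were 418 in the aub heterozygote and 222 in the ago3 heterozygote, and for G-element 247 in the aub heterozygote and 1787 in the ago3 heterozygote.

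The y w testis, a further whole testis without these mutations, was set beside the heterozygotes over the same 86 elements, with 354963 reads. The lengths counted for it may differ and are stated in no source used here. The ago3 heterozygote differed from y w by a median absolute log2 ratio of 0.35 and the aub heterozygote by 0.52, beside 0.47 between the 2 heterozygotes. The comparisons share libraries, so these are values side by side and not tests. Between the bam and bgcn testes the median was 0.67, and between the can and sa testes it was 0.81. The value for the heterozygotes was thus below those of both mutant pairs. Beside the 17.6% of elements past 2-fold between the heterozygotes, 27.9% lay past it for the aub heterozygote and y w, 17.4% for the ago3 heterozygote and y w, 31.4% for the bam and bgcn pair and 41.2% for the can and sa pair.

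Several of the elements with 2-fold differences had a y w share close to that of the ago3 heterozygote. Bari1 held 0.297% in the aub heterozygote, 1.06% in the ago3 heterozygote and 1.09% in y w. For gtwin the shares were 0.307% in the aub heterozygote, 0.942% in the ago3 heterozygote and 0.819% in y w. In springer they were 0.419% in the aub heterozygote, 0.139% in the ago3 heterozygote and 0.147% in y w. Other elements lay near the aub heterozygote or outside both. The share of diver in y w was 0.643%, above its 0.548% in the aub heterozygote. That of invader3 was 3.39% in y w, above both heterozygotes. The LINEs jockey and jockey2 held 0.0704% and 0.0487% in y w, below both heterozygotes. Of the 15 elements past 2-fold, y w was nearer to the aub heterozygote for 6 and to the ago3 heterozygote for 9 on the log scale, and of all 85 it was nearer to the aub heterozygote for 43 and to the ago3 heterozygote for 42.

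By strand, the libraries held nearly the same number of sense reads of 23 to 29 nt and unlike numbers of antisense reads. Sense reads numbered 49601 in the aub heterozygote and 50020 in the ago3 heterozygote, a raw ratio of 0.992 (0.979 to 1.00). Antisense reads numbered 48146 in the aub heterozygote and 65765 in the ago3 heterozygote, a raw ratio of 0.732 (0.724 to 0.741). The antisense share was 49.3% in the aub heterozygote and 56.8% in the ago3 heterozygote, whatever the scale. In raw reads this went with the antisense number. A library factor multiplies both strands alike, so which strand differs in amount depends on the scale. At each length from 23 to 29 nt the antisense share was smaller in the aub heterozygote. It was largest at 23 nt in the aub heterozygote, at 64.0%, and at 24 nt in the ago3 heterozygote, at 69.1%.

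Sense reads peaked sharply at 26 nt in both testes. In the aub heterozygote 18421 sense reads had 26 nt, 1.77 times the 10393 of 25 nt and 3.06 times the 6025 of 27 nt. In the ago3 heterozygote 21065 sense reads had 26 nt, 2.23 times the 9455 of 25 nt and 3.47 times the 6075 of 27 nt. As a share of the 23 to 29 nt sense reads the peak came to 37.1% (36.7 to 37.6) for the aub heterozygote, against 42.1% (41.7 to 42.5) for the ago3 heterozygote. It was lower in the aub heterozygote by number as well as by share. At 26 nt the raw sense ratio was 0.874 (0.857 to 0.892), whereas over the other lengths of 23 to 29 nt together it was 1.08 (1.06 to 1.09). At 23, 24, 25, 28 and 29 nt the aub heterozygote had more sense reads, at ratios between 1.07 and 1.12, and at 27 nt the interval of 0.957 to 1.03 included 1.

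Antisense reads had no such peak. Their most frequent length was 25 nt in both testes, holding 24.2% (23.8 to 24.6) of that strand in the aub heterozygote, against 24.7% (24.34 to 25.0025) in the ago3 heterozygote, within 23 to 29 nt. The antisense reads of the aub heterozygote were shorter, with a mean length of 25.4 nt against 25.5 nt in the ago3 heterozygote. Their raw ratio was 0.941 (0.905 to 0.979) at 23 nt, 0.718 (0.701 to 0.735) at 25 nt and 0.653 (0.633 to 0.674) at 27 nt. The excess of the sense strand was restricted to 26 nt in the ago3 heterozygote, where sense reads outnumbered antisense reads 1.56 times at 26 nt and were fewer at the other 6 lengths from 23 to 29 nt. In the aub heterozygote sense reads outnumbered antisense reads 2.02 times at 26 nt, 1.01 times at 28 nt and 1.12 times at 29 nt.

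**Figure D4:**
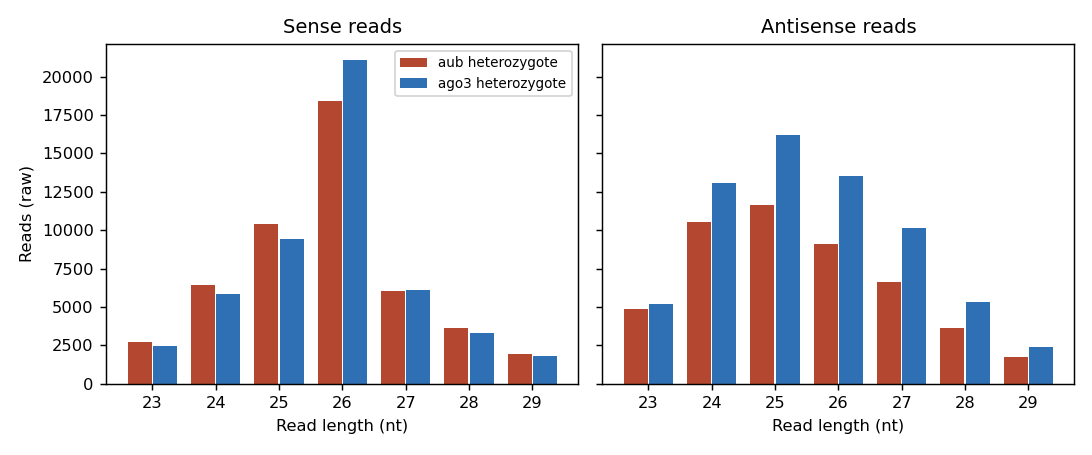
Raw reads (y axis) by read length from 23 to 29 nt (x axis), on the sense strand (left) and the antisense strand (right), in the aub heterozygote and the ago3 heterozygote, 1 library each. At 26 nt there are 18421 sense reads in the aub heterozygote and 21065 in the ago3 heterozygote, and antisense reads are fewer in the aub heterozygote at each length.

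The widest gap between the libraries lay below the piRNA range. Short sense reads, 15 to 17 nt long, came to 729846 for the aub heterozygote and 58728 for the ago3 heterozygote, a raw ratio of 12.4 (12.3 to 12.5), beside near equality at 23 to 29 nt. Per sense read of the piRNA range, the aub heterozygote had 14.7 such short reads and the ago3 heterozygote 1.17. The excess shrank with length. The raw sense ratio was 12.6 at 15 nt, 10.7 at 17 nt, 7.23 at 18 nt, 4.86 at 19 nt and 1.80 at 20 nt. From 30 to 44 nt the ratio was 0.9199 (0.868 to 0.975). Despite the 12.4-fold difference in number, the short reads had nearly the same length make-up, with 15 nt reads forming 70.3% (70.2 to 70.4) of them in the aub heterozygote, against 69.1% (68.7 to 69.5) in the ago3 heterozygote.

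At 21 nt, where small interfering RNAs lie, sense reads stood out as a separate peak in both testes. They numbered 5788 in the aub heterozygote and 3409 in the ago3 heterozygote, a raw ratio of 1.70 (1.63 to 1.77), between the ratio at 20 nt and the 1.37 at 22 nt. Among sense reads of 18 nt and longer, 21 nt reads made up 8.18% (7.98 to 8.39) in the aub heterozygote, against 5.74% (5.55 to 5.93) in the ago3 heterozygote. Short reads were many in the mutants of the same series too, with 15 to 17 nt reads at 97.0% of sense reads in the aub mutant and 82.5% in the ago3 mutant, beside 91.2% in the aub heterozygote and 49.7% in the ago3 heterozygote. Within each pair the mutant had the larger share, and both libraries of the aub pair stood above both of the ago3 pair.

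**Figure D5:**
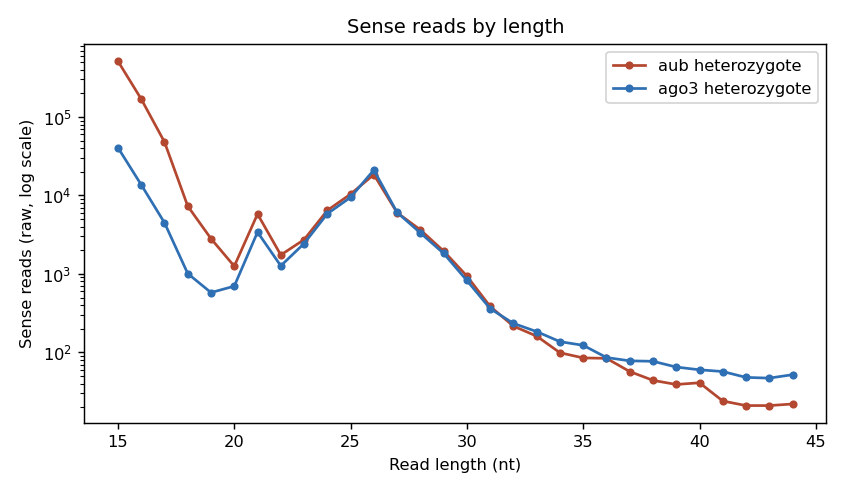
Raw sense reads (y axis, log scale) by read length from 15 to 44 nt (x axis) in the aub heterozygote and the ago3 heterozygote, 1 library each. The curves lie close together from 23 to 31 nt, both have peaks at 21 and 26 nt, and the aub heterozygote lies 12.6 times higher at 15 nt.

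Reads outside the 86-element table, whose lengths per element are stated in no source used here, differed between the libraries far more than those in it. The table's reads were a median of 5.13% of an element's reads over all lengths and both strands in the aub heterozygote and 40.9% in the ago3 heterozygote. The lowest share was 0.194% in the aub heterozygote, for gypsy5. Reads of an element that the 86-element table leaves out were more numerous in the aub heterozygote for each of the 86 elements, by a median of 7.82 times and a range of 2.05 times for G2 to 25.03 times for Q-element. These are raw numbers, all-length reads minus those of the 86-element table. That takes the second as part of the first, which no source used here states. The median lies between 2 library-wide ratios. All reads numbered 1742807 in the aub heterozygote and 274660 in the ago3 heterozygote, a ratio of 6.35. For reads of both strands outside 23 to 29 nt the ratio was 10.4. For the gypsy-type element 412, reads over all lengths numbered 163208 in the aub heterozygote and 18039 in the ago3 heterozygote, of which 893 and 737, in that order, were in the 86-element table. By contrast 1360 had 22229 reads over all lengths in the aub heterozygote and 23137 in the ago3 heterozygote, of which 13886 and 19698, in that order, were in the 86-element table. Thus the all-length share of 412 was 9.36% in the aub heterozygote and 6.57% in the ago3 heterozygote, while that of 1360 was 1.28% in the aub heterozygote and 8.42% in the ago3 heterozygote.

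Across the 86 elements, log reads of the 86-element table correlated between the libraries at r = 0.92, and log reads left out of it at r = 0.87. These are descriptions over elements of the same libraries, which share element length and are not replicates. The tables over all lengths also list 51 entries from other Drosophila species that are not among the 86 elements. They took 15.9% (15.8 to 15.9) of all-length reads in the aub heterozygote, against 6.82% (6.73 to 6.92) in the ago3 heterozygote, with raw numbers of 276311 in the aub heterozygote and 18745 in the ago3 heterozygote. The raw ratio was 14.7, and the lengths of these reads are not known. The largest of them was Dvir-Ulysses, with 44847 reads in the aub heterozygote and 2648 in the ago3 heterozygote.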

How the data were processed

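Small RNA libraries ("True-seq", per the labels' protocols) were processed with tools among which the submitters' processing notes list Bowtie (version 1) and DESeq2; no role is stated. For the aub and ago3 genotypes the authors deposited raw read counts per transposon over all lengths, length tables, and 1 table of normalised signal for 86 elements, whose factors no source used here explains. That signal was a whole multiple of 1 step per library for each element (tolerance 0.001 reads), which gave the reads. For the length tables, whose headers mention rfam, levels are raw reads times the factor the values give. Raw counts of y w, bam, bgcn, can and sa are as deposited by the authors. Antisense reads are both strands minus sense reads, since 4 antisense columns name no sample and were not used. Shares have Clopper-Pearson intervals and share ratios exact conditional binomial intervals (Python 3.11.15, SciPy 1.17.1), which were tested on simulated data. Elements with at least 100 reads in both heterozygotes together were counted at 2-fold.

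Named elements were the 10 largest and 10 smallest ratios, the 10 most abundant per library, the 3 with a mean share of at least 1% nearest to equality, the telomeric elements and those beside the 2-fold limit; others named with values were chosen after their values were seen. The members, lists and families were chosen with earlier results of these data known, and Stalker3T and Dyak-TART were added to their families after the element names were read. Alternatives changed the table, scale, centring, total, minimum, fold and length windows.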

Additional observations from a re-analysis of the deposited data

Results flagged for a closer look

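The tables over all read lengths hold 93 entries that are not in the 86-element table, a signal outside the main comparison. These entries took 37.9% (37.86 to 38.01) of all-length reads in the aub heterozygote, against 19.4% (19.3 to 19.6) in the ago3 heterozygote, with 661108 reads in the aub heterozygote and 53342 in the ago3 heterozygote. The largest of them was gypsy9, with 52290 reads in the aub heterozygote and 7823 in the ago3 heterozygote, followed in the aub heterozygote by Tirant, with 50111 reads in the aub heterozygote and 2909 in the ago3 heterozygote. Read lengths at single entries are stated in no source used here, and their piRNA share was not computed.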

How the results depend on the processing

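Each genotype has 1 library, so depth limits counting precision alone and variation between animals was not measured. No paired analysis was possible because each genotype has 1 library and no test was made. The median share ratio of 0.879 became 0.784 with the all-length tables, 0.529 with the authors' normalised values and 1.00 by centring on it. The all-length tables count both strands, and their shares are of the total of 179 entries. Every all-length ratio and count in this paragraph uses that total, which lowers the ratios. How far the 0.784 reflects read length rather than the total was not tested. The count of elements 2-fold higher in the aub heterozygote (5) became 7 over all lengths, 0 with the normalised values and 9 centred. It was 3 at a minimum of 500 reads, 15 at 1.5-fold and 2 at 3-fold. The count of lower elements (10) became 27 over all lengths, 34 with the normalised values, 5 at a minimum of 500 reads, 21 at 1.5-fold, 4 at 3-fold and 6 by whole intervals. Without 1360 in the total, and at minimums of 20 and 0 reads, both counts were as before. Of the 15 elements, those still past 2-fold in the same direction numbered 4 over all lengths, 10 with normalised values, 14 centred and 15 without 1360. The normalised values, the centring and the total without 1360 each multiply all ratios by 1 constant. These constants are too near 1 to turn the direction of any of the 15, so directions there carry no information. Over all lengths, on the total of 179 entries, 11 kept their direction. There invader3 (0.768), mdg3 (0.434), Helena (1.77) and Dyak-TART (1.93) lay on the other side of 1. Among families, the level ratios of gypsy-type (0.711) and BEL/Pao-type (0.796) elements were below 1 with the normalised values, as share ratios times 0.602. Shares of BEL/Pao-type (0.706), telomeric (1.44) and somatic-type (1.28) elements changed direction over all lengths, on the total of 179 entries. The family alternatives were chosen after seeing the data.

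The 26 nt share of sense reads was 41.0% in the aub heterozygote and 46.0% in the ago3 heterozygote within 24 to 28 nt, and 35.2% and 40.4%, in that order, within 22 to 30 nt. The antisense share over all lengths was 54.1% in the aub heterozygote and 57.0% in the ago3 heterozygote, a narrower gap than within 23 to 29 nt. Within 24 to 28 nt it was 48.0% in the aub heterozygote and 56.0% in the ago3 heterozygote. Sense reads of 15 to 18 nt made up 92.1% in the aub heterozygote and 50.6% in the ago3 heterozygote, and those of 15 to 19 nt 92.4% and 51.1%, in that order. The level ratio of 23 to 29 nt reads (0.885) was 0.844 in raw reads and 0.497 per 21 nt sense read, and, as alternatives chosen after seeing the data, 0.848 with the factors of the transposon tables and 0.602 with the total of the 86-element table. The median absolute log2 ratio (0.47) was 0.23 when weighted by mean share. The cause of these changes was not tested.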
